A study of Saccharomyces cerevisiae with 6 samples.

Results

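The ATG genes code for the autophagy machinery of budding yeast. They were taken here as every gene whose symbol in the array's annotation is ATG followed by digits only, with 1 probe set per gene. This gave 34 of the 5449 Saccharomyces cerevisiae genes tested. No ATG gene had a second probe set, none of the 34 probe sets is of a type that can bind related transcripts, and 33 were above background on all 6 arrays. Transcript levels came from 6 Affymetrix yeast arrays, 3 with RNA of the wild-type strain FY4 and 3 with RNA of a GCR2 deletion mutant, for which no parent strain is stated. Gcr2 is an activator of glycolytic genes. Both strains grew exponentially in batch at 30 °C in glucose minimal medium. Whether replicates came from separate cultures is not stated, and the p-values reflect only how far these arrays scatter, possibly for technical reasons.

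Autophagy encloses cytoplasm in a double membrane, the autophagosome, and delivers it to the vacuole for breakdown. A kinase complex starts the process, vesicles carrying Atg9 and a phosphatidylinositol 3-kinase build the membrane, and a pair of conjugation systems attach Atg8 to it. Receptors that bind both a cargo and Atg8 make the process selective for the endoplasmic reticulum, mitochondria, peroxisomes or vacuolar enzymes. In growing yeast the same machinery runs the cytoplasm-to-vacuole targeting (Cvt) pathway, and starvation for nitrogen or carbon induces bulk autophagy. The 34 genes were put in 5 classes by these roles, namely 20 of the core machinery, 6 selective receptors, 5 scaffold and accessory factors, 2 genes of vacuolar breakdown and efflux, and ATG41.

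Levels are log2 probe-set intensities, given for replicates 1, 2 and 3 in that order, and each change is the deletion mean minus the wild-type mean on that scale. A gene was called, and is said to have risen or fallen, at a limma adjusted p under 0.05 over all 5449 genes. The deletion removed the GCR2 signal, which was 11.11 ± 0.05 (SD, n = 3) in wild-type and under background on all 3 deletion arrays, at least 27.5-fold lower (adjusted p = 1.01e-06). Wild-type replicate 3 and deletion replicate 1 lay farthest out on the leading principal component (61.8% of the variance), which split the strains. Poly-A spike-in controls were 0.88 lower on the deletion arrays, and centring on them raised the median change of all genes from 0.02 to 0.90, so each change holds only relative to the other transcripts. The 6 ribosomal RNA probe sets were also lower in the deletion, at 12.73 ± 0.29 against 13.88 ± 0.09 (SD, n = 3), and the part of this difference in the ATG values was not tested. Whether transcript per cell or the share of cells with a transcript differed cannot be told apart in such bulk RNA.

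Most ATG transcripts differed little between the strains, and 1 stood far from the rest. ATG39, the receptor for autophagy of the perinuclear endoplasmic reticulum and nucleus, fell 3.01-fold and was the only one of the 34 to change by 2-fold or more. ATG38 and ATG5 of the core machinery fell by 0.40 and 0.30, ATG41 rose by 0.75, ATG3 by 0.31 and ATG19 by 0.23. In all 6 of the 34 were called (17.6%), against 22.5% of all genes tested. Of these 3 rose, where 14.1% of all genes rose, and 3 fell, where 8.35% of all genes fell. The groups did not overlap for 15 members (44.1%), against 45.2% of all genes, so neither share stood above that of the whole array. Of the 15, 8 lay higher in the deletion and 7 lower, against 27.1% and 18.1% of all genes. The members' median change was 0.03 and that of all genes 0.02. The members' median size of change, regardless of sign, was 0.17 against 0.13.

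**Figure D1:**
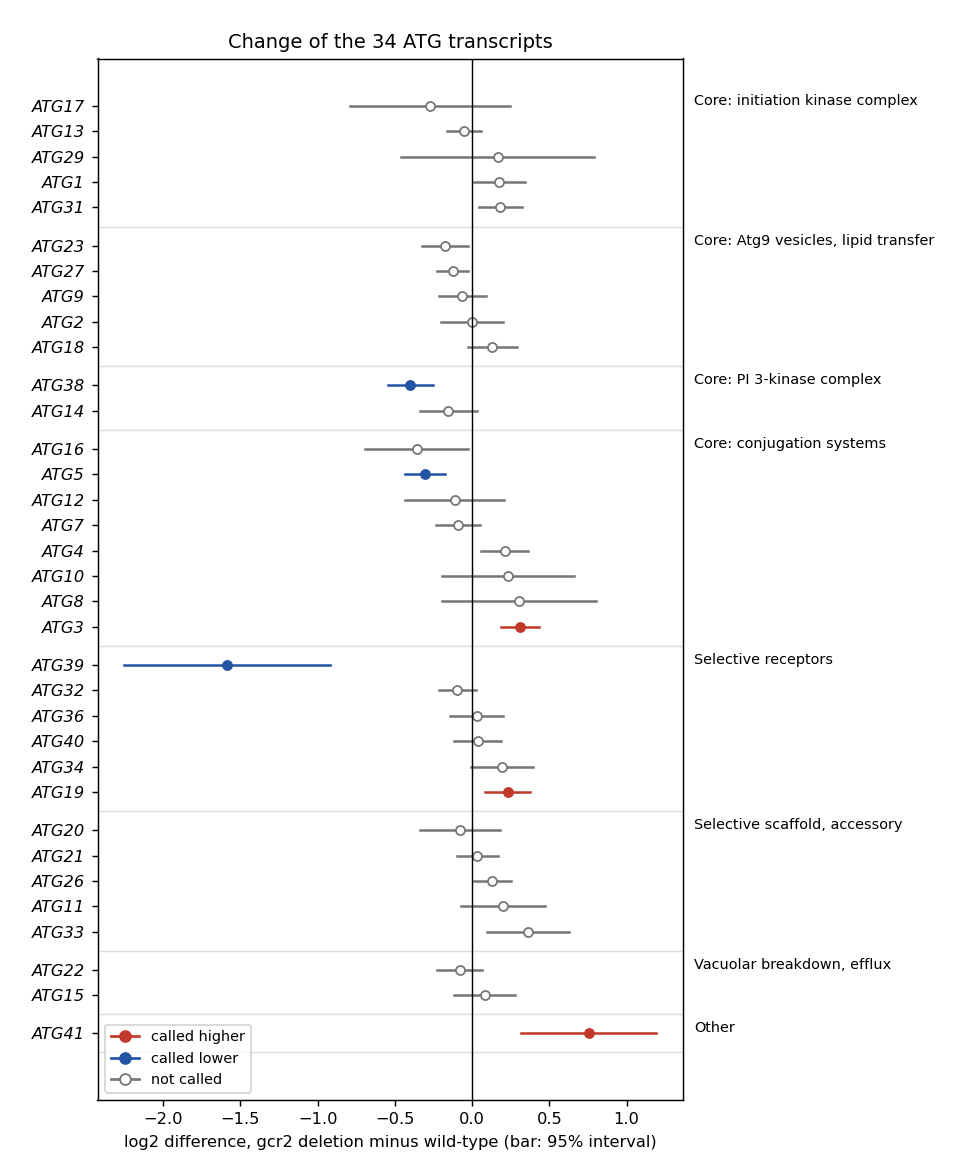
Log2 difference between deletion and wild-type (horizontal axis) of the 34 ATG transcripts, grouped by role, with limma's 95% interval as the bar; filled points are called. ATG39 lies at -1.59, and the other 33 lie between -0.40 and 0.75.

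The selective receptors did not move together. Of the 6, ATG39 fell, ATG19 rose and 4 did not pass, so that 33.3% were called, against 22.5% of all genes. ATG39 was at 9.51, 10.34 and 10.17 in wild-type and at 7.98, 8.64 and 8.64 in the deletion. Every deletion array was below every wild-type array, and replicate 1 was the lowest in both strains. The change was -1.59 (SE 0.27, 95% interval -2.25 to -0.92, limma adjusted p = 0.0134). It lay between -1.84 and -1.37 when any 1 array was left out, and the call held each time. With the outermost array of each strain removed the change was -1.29 and no longer called (adjusted p = 0.076). That setting leaves fewer arrays and removes those farthest out on the component that split the strains. Over all genes it called 328, against 1224 with all arrays, so a call lost there is not particular to ATG39. With arrays centred on the poly-A controls ATG39 still fell, by 0.71 (adjusted p = 0.026), and it was then the only member called lower.

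ATG40, the receptor for the cortical endoplasmic reticulum, was at 9.74, 9.71 and 9.86 in wild-type and at 9.78, 9.74 and 9.90 in the deletion. The groups overlapped, and the change of 0.03 had a 95% interval of -0.12 to 0.19. Both receptors serve the endoplasmic reticulum, so the change of one was set against that of the other. This gene pair, ATG19 with ATG34 and ATG32 with ATG33 were chosen after their values were seen, so no p-value is given for them. Relative to its wild-type mean, the log2 ratio of ATG39 to ATG40 was -0.47, 0.39 and 0.08 in wild-type and -2.03, -1.33 and -1.50 in the deletion. All 3 deletion arrays lay below the wild-type arrays, which mostly restates the fall of ATG39, as ATG40 changed by only 0.03.

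ATG19 is the Cvt receptor that brings the aminopeptidase Ape1 and the mannosidase Ams1 to the vacuole. It was at 10.84, 10.97 and 10.89 in wild-type and at 11.04, 11.15 and 11.20 in the deletion. The strains were apart by a small margin, and the rise of 0.23 (SE 0.06, adjusted p = 0.0428) was lost in 9 of 18 alternative settings, among them 5 of the 6 that leave out 1 array. Only leaving out wild-type replicate 2 kept it (adjusted p = 0.0439), and without the other arrays the adjusted p was between 0.0544 and 0.15. ATG34, a homologous receptor for Ams1 whose gene adjoins ATG19, was at 9.16, 9.43 and 9.21 in wild-type and at 9.55, 9.39 and 9.44 in the deletion. Wild-type replicate 2 reached into the deletion's range, and the change of 0.19 was not called (adjusted p = 0.147). Without that array it was 0.27 and called (adjusted p = 0.0386). The ratio of ATG19 to ATG34 differed between the strains by 0.04, with an SD of 0.08 in wild-type and 0.16 in the deletion (n = 3 each).

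ATG32, the mitophagy receptor on the outer mitochondrial membrane, was at 10.44, 10.37 and 10.52 in wild-type and at 10.37, 10.33 and 10.34 in the deletion. The strains were apart, but the difference of -0.10 was not called (adjusted p = 0.2). ATG36, the receptor for peroxisomes, was at 9.32, 9.53 and 9.30 in wild-type and at 9.40, 9.38 and 9.46 in the deletion. These groups overlapped, with a change of 0.03 (95% interval -0.14 to 0.20).

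**Figure D2:**
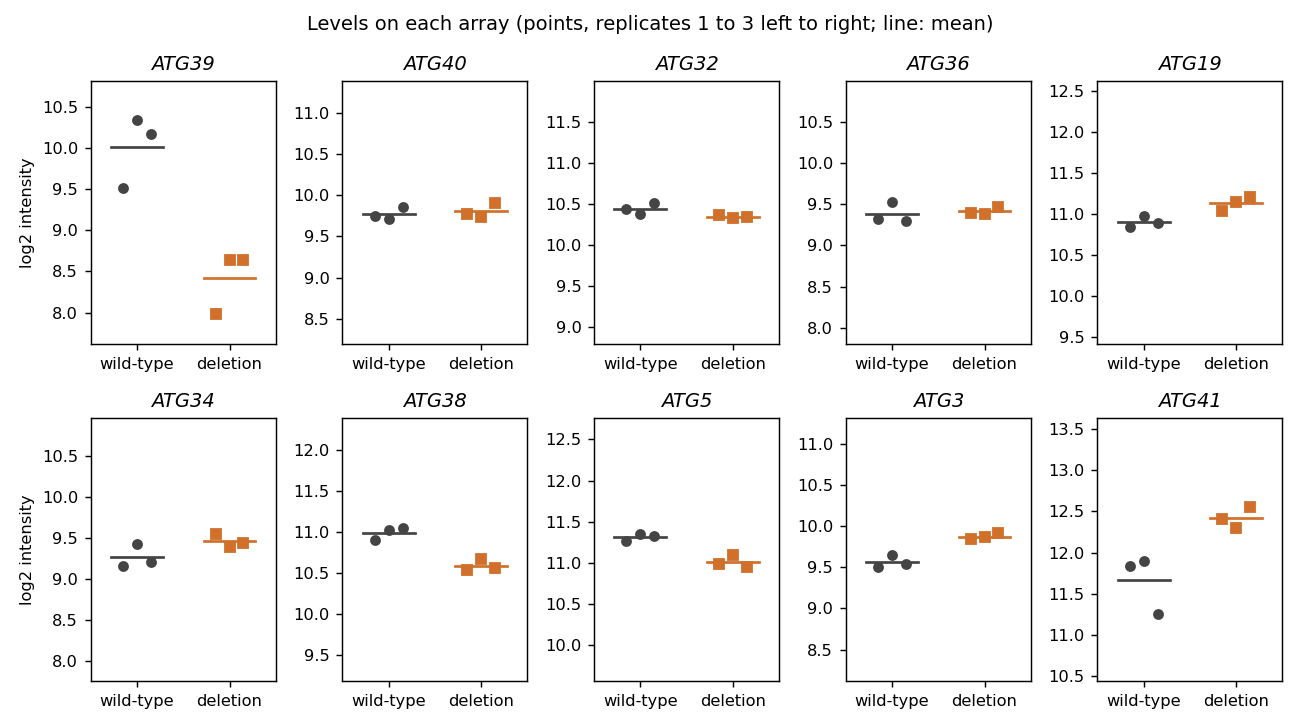
Log2 intensity (vertical axis, the same span in each panel) of the 6 receptors and of ATG38, ATG5, ATG3 and ATG41 on each array; points are replicates 1 to 3 and lines are means. The groups are far apart for ATG39 and overlap for ATG40, ATG36 and ATG34.

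In the core machinery 20 genes were measured, of which 1 rose, 2 fell and 17 were not called. The 15% called compares with 22.5% of all genes. Changes ran from -0.40 to 0.31, with 11 genes lower and 9 higher and a median of -0.06, which was 0.82 with poly-A centring. The receptors' median was 0.03, or 0.91 with poly-A centring and -0.03 with quantile normalization over the genes tested, and without ATG39 the other 5 ran from -0.10 to 0.23. The widest departure among the receptors was therefore that of 1 gene, and no test of the difference between the classes was made. Without ATG23, ATG27 and ATG38, whose place in the core is a matter of definition, 2 of 17 core genes were called and the median was 0.001.

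**Figure D3:**
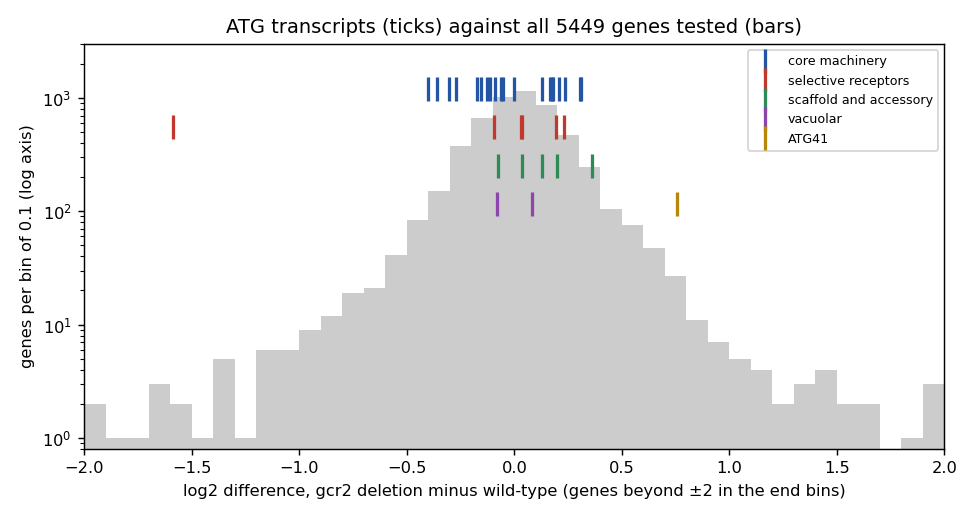
Log2 difference between deletion and wild-type (horizontal axis) of all 5449 genes as bars, on a log count axis with values beyond the plotted span in the end bins, with the ATG transcripts as ticks by class. The core machinery lies within the bulk of the genes, from -0.40 to 0.31, and ATG39 lies in the lower tail.

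None of the 5 genes of the initiation kinase complex was called at the main setting. ATG1, the kinase, was 0.18 higher (adjusted p = 0.114; with array weights 0.20, called at adjusted p = 0.0452), ATG31 0.18 higher (adjusted p = 0.0659) and ATG13, its regulatory subunit, 0.05 lower. ATG31 was at 9.71, 9.85 and 9.73 in wild-type and at 9.99, 9.96 and 9.88 in the deletion. Its groups did not overlap, and the difference was called without wild-type replicate 2 (0.23, adjusted p = 0.04). ATG17 and ATG29, which form the scaffold with ATG31, varied widely between arrays. ATG29 was at 7.33, 7.65 and 7.35 in wild-type and at 8.19, 7.41 and 7.22 in the deletion. Deletion replicate 1 alone was high, and without it the change of 0.17 turned to -0.13. ATG17 was lowest in replicate 1 of both strains, at 8.68 and 8.41, and its change of -0.27 had an interval of -0.79 to 0.25.

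The 5 genes of Atg9 vesicles and lipid transfer differed by -0.17 to 0.13, and none was called. ATG9, for the membrane protein of the vesicles, differed by -0.06 and ATG2, for the lipid transfer protein, by less than 0.01. ATG18, whose product binds phosphatidylinositol 3-phosphate beside Atg2, was at 9.90, 9.92 and 9.71 in wild-type and at 9.996, 9.957 and 9.969 in the deletion. ATG23 was at 9.45, 9.46 and 9.62 in wild-type and at 9.28, 9.39 and 9.34 in the deletion. ATG27 was at 12.16, 12.20 and 12.23 in wild-type and at 12.09, 12.02 and 12.09 in the deletion. The groups did not overlap for these 3 genes. ATG23 and ATG27, which serve the traffic of Atg9, were 0.17 and 0.13 lower (adjusted p = 0.0911 and 0.0787), and ATG18 was 0.13 higher (adjusted p = 0.195).

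ATG38 had the smallest adjusted p of the 34. Its product holds together phosphatidylinositol 3-kinase complex I, and it fell from 10.90, 11.02 and 11.04 to 10.54, 10.66 and 10.56. The arrays of each strain lay close together and the groups were well apart. The change of -0.40 (SE 0.06, 95% interval -0.54 to -0.25, adjusted p = 0.0088) kept its call when any 1 array was left out. It was lost without both outermost arrays (-0.35, adjusted p = 0.0718), and with poly-A centring its direction turned (0.48, not called). ATG14, for the subunit that sends the complex to autophagy, was 0.15 lower and not called. Of the partners named otherwise, VPS34, the lipid kinase itself, rose by 0.17 (adjusted p = 0.034). VPS30, also called ATG6, and VPS15 differed by -0.09 and -0.03 and were not called.

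The conjugation genes went both ways, with ATG3 up, ATG5 down and 6 of 8 not called. ATG3, the enzyme that transfers Atg8 to phosphatidylethanolamine, was at 9.51, 9.65 and 9.54 in wild-type and at 9.84, 9.87 and 9.91 in the deletion. The groups did not overlap, and the rise of 0.31 (SE 0.05, adjusted p = 0.0119) held without any 1 array except deletion replicate 3 (adjusted p = 0.0608). ATG4, the protease that matures and recycles Atg8, was at 8.31, 8.45 and 8.30 in wild-type and at 8.49, 8.57 and 8.62 in the deletion. The groups were separate and the difference of 0.21 missed the threshold (adjusted p = 0.0564), but array weights (adjusted p = 0.0184) or the removal of wild-type replicate 2 (adjusted p = 0.0318) gave a call.

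ATG5, whose product is joined to Atg12 and binds Atg16, was at 11.27, 11.35 and 11.33 in wild-type and at 10.99, 11.10 and 10.95 in the deletion. The groups did not overlap, and it fell by 0.30 (SE 0.05, adjusted p = 0.0143), a direction that turned with poly-A centring (0.57, not called). The call was lost without deletion replicate 1 (adjusted p = 0.0589) or replicate 3 (adjusted p = 0.0669). ATG16, its partner, was the dimmest of the 34 and lay around background, above it on 2 of 3 wild-type and 1 of 3 deletion arrays. It was at 6.40, 6.51 and 6.50 in wild-type and at 6.07, 6.40 and 5.86 in the deletion, a difference of -0.36 that was not called (adjusted p = 0.107) but was called without deletion replicate 2 (-0.51, adjusted p = 0.0317). ATG12, the third member of that complex, differed by -0.11 and ATG7, the activating enzyme of both systems, by -0.09, and neither was called.

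ATG8, the ubiquitin-like protein that marks the autophagosome, was at 10.47, 10.72 and 9.88 in wild-type and at 10.65, 10.65 and 10.69 in the deletion. Wild-type replicate 3 was the low array, and the groups overlapped. The change of 0.30 was about that of ATG3, but the wild-type SD was 0.43 and the interval ran from -0.19 to 0.80 (adjusted p = 0.315). Without wild-type replicate 3 the difference was 0.07. ATG10, the conjugating enzyme for Atg12, was also lowest on that array, at 8.83, 9.20 and 8.49 in wild-type and at 8.99, 9.04 and 9.19 in the deletion. Its change was 0.23 with all arrays and 0.06 without that one, and neither value was called.

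ATG41, first named ICY2, is needed for efficient movement of Atg9 to the site of autophagosome formation. It was at 11.84, 11.89 and 11.26 in wild-type and at 12.40, 12.29 and 12.55 in the deletion. All deletion arrays were above all wild-type arrays, and wild-type replicate 3 was again the lowest. ATG41 rose by 0.75, which is 1.69-fold (SE 0.18, 95% interval 0.32 to 1.19, adjusted p = 0.0316). Without wild-type replicate 3 the rise was 0.55 and still called (adjusted p = 0.017), but the call was lost without wild-type replicate 1 (adjusted p = 0.053) or any 1 deletion array (0.0719 to 0.113).

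No scaffold or accessory factor was called at the main setting. ATG33, for a mitochondrial outer membrane protein that serves mitophagy, was at 11.04, 11.12 and 10.71 in wild-type and at 11.31, 11.30 and 11.35 in the deletion. All deletion arrays were higher, and the difference of 0.36 missed the threshold (adjusted p = 0.0617). It was called without wild-type replicate 3 (0.23, adjusted p = 0.0295) or replicate 2 (0.44, adjusted p = 0.0412). With all 6 arrays ATG33 was also called under median centring (0.35, adjusted p = 0.0478), array weights (0.32, adjusted p = 0.0172) and poly-A centring (1.23). Against ATG32, the mitophagy receptor, the log2 ratio of ATG32 to ATG33 was at -0.46 ± 0.04 in the deletion relative to its wild-type mean, where the wild-type SD was 0.29 (n = 3 each).

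ATG26, for a sterol glucosyltransferase, was at 11.57, 11.62 and 11.50 in wild-type and at 11.74, 11.68 and 11.66 in the deletion. Its lowest deletion array lay just above its highest wild-type array, and the difference of 0.13 was not called (adjusted p = 0.107). ATG11, the scaffold that links receptors to the initiation complex, was at 10.35, 10.28 and 10.30 in wild-type and at 10.76, 10.34 and 10.43 in the deletion. Deletion replicate 1 was the high array. The change of 0.20 was not called and was 0.07 without that array. ATG20, a sorting nexin gene, and ATG21, for a binder of phosphatidylinositol 3-phosphate, differed by -0.08 and 0.03. In the vacuole, ATG15, the lipase that opens autophagic bodies, differed by 0.08 and ATG22, an exporter of amino acids, by -0.08, and neither was called.

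The 6 calls differed in how they held up over 18 alternative settings. Averaging probe sets, or removing dim ones or those that can bind related transcripts, left every member's log2 change as it was. Such settings could alter a member's call only through the fit of the other genes. Poly-A centring aside, the number of settings in which a call was lost was 9 for ATG19, 8 for ATG41, 5 for ATG5, 4 for ATG3, 3 for ATG39 and 2 for ATG38. With poly-A centring ATG5 and ATG38 also lost their calls and changed direction, while ATG39 was still called lower. ATG3, ATG19 and ATG41 kept their calls too, but that setting raised every change and called 29 of the 34 members higher. It therefore put no rise at risk. The SD between arrays was 0.44 in wild-type and 0.38 in the deletion for ATG39, and 0.08 and 0.07 for ATG38. Over all 34 members the median range among the wild-type arrays was 0.16, as it was over all genes. That range exceeded the size of the change for 20 members. None of them was called, which largely follows from the test, as it weighs each change against the spread between arrays. Wild-type replicate 2 was the highest wild-type array for 24 of the 34 and replicate 1 the lowest for 20. For the core machinery the median deviation from each gene's wild-type mean was -0.06, 0.09 and -0.01 in the wild-type and -0.07, -0.03 and -0.04 in the deletion. These medians join genes that went up with genes that went down, and the median size of change in the core, regardless of sign, was 0.18.

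**Figure D4:**
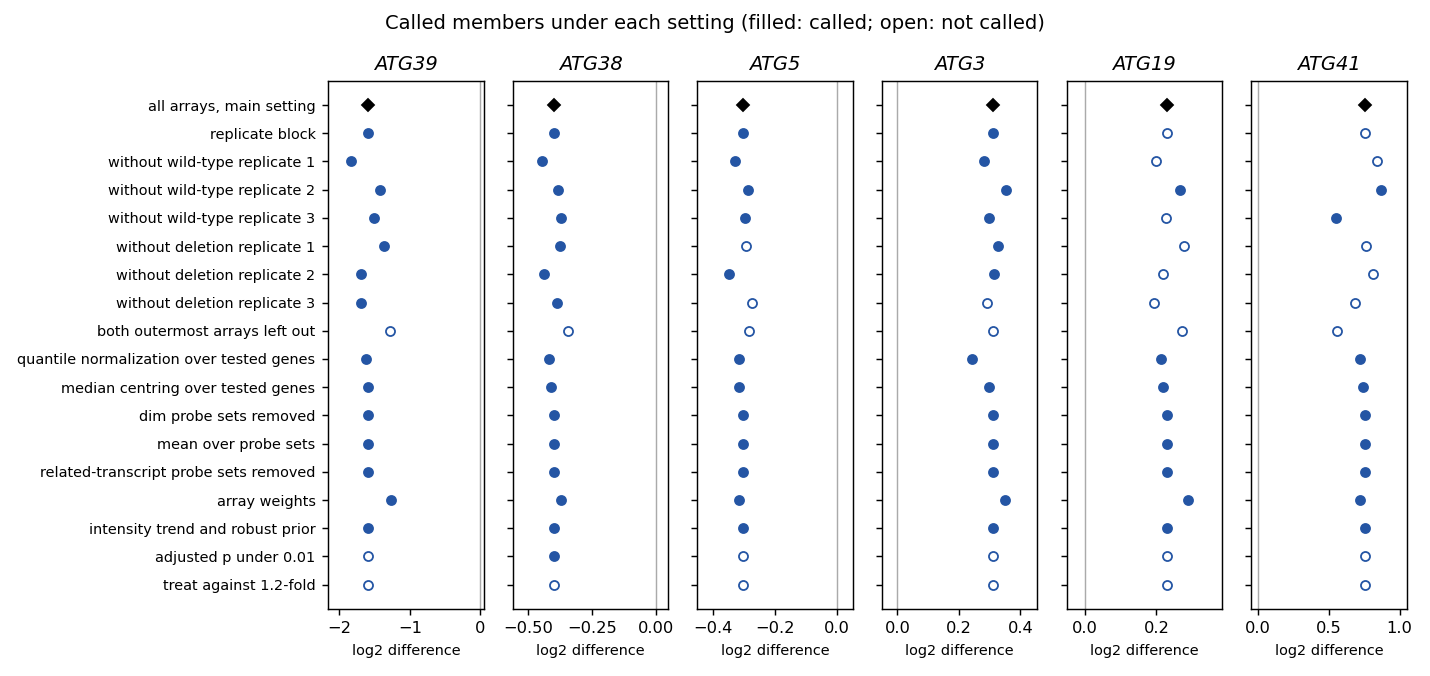
Log2 difference between deletion and wild-type (horizontal axis, a separate scale in each panel) of the 6 called members under the main and each alternative setting except poly-A centring; filled points are called. The value of ATG39 stays between -1.84 and -1.27, while ATG19 and ATG41 have the most open points.

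Other genes of the pathway were counted from lists of their roles, and each share called is to be read against the 22.5% of all genes. Of 4 cargo genes of the Cvt pathway 2 rose and 2 did not pass. AMS1, the mannosidase carried by Atg19 and Atg34, was at 8.84, 9.03 and 8.72 in wild-type and at 9.56, 9.73 and 9.60 in the deletion, a rise of 0.76 (adjusted p = 0.00455). LAP3, a cytosolic cysteine aminopeptidase, rose by 0.53 (adjusted p = 0.00164). APE1, the main cargo, was 0.17 higher and APE4 was 0.10 lower, and neither was called. Of 19 genes of nutrient kinases and their complexes 3 rose and 16 did not pass (15.8% called). Those called were TCO89 and KOG1 of the TORC1 complex, up by 0.19 and 0.18, and BCY1, the inhibitory subunit of protein kinase A, up by 0.28. For vacuole fusion 2 of 15 rose, TRS85 by 0.21 and YPT1 by 0.24, 1 fell, CCZ1 by 0.19, and 12 did not pass (20% called). Of 8 vacuolar hydrolase genes and their inhibitors PRB1 rose by 0.30, CPS1 fell by 0.67 and 6 did not pass (25% called).

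Among 17 regulators known to act on ATG transcription 2 rose, 4 fell and 11 did not pass, so that 35.3% were called, against 22.5% of all genes. DAL80, a GATA repressor, fell by 1.61 (adjusted p = 0.000224). GAT1 and GLN3, GATA activators, fell by 0.42 and 0.18, and MSN4, a stress activator, fell by 0.81. SIN3, part of a corepressor, rose by 0.21 and MSN2 by 0.20. UME6, which brings that corepressor to ATG8, differed by less than 0.01 (adjusted p = 0.992), and RPH1, a repressor of several ATG genes, by 0.05; neither was called.

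Marker genes of starvation moved in both directions beside these values. Of 25 genes under nitrogen catabolite repression 11 fell, 4 rose and 10 were not called, a share of 60% called against 22.5% of all genes. Their median was -0.17, and PUT1, for proline oxidase, fell by 1.62. Among 14 starvation and stationary phase genes 2 rose, 2 fell and 10 were not called (28.6% called). HSP26, for a small heat shock chaperone, fell by 1.37, and CTT1, for cytosolic catalase, rose by 0.95. HSP12, chosen after its values were seen, was at 11.14, 11.20 and 10.57 in wild-type and at 11.67, 11.38 and 11.83 in the deletion. Its lowest array, wild-type replicate 3, was the lowest wild-type array for 10 of the 34 members, among them ATG8, ATG10, ATG33 and ATG41. Replicate 1 was the lowest for 20 members and replicate 2 for 4, so replicate 3 did not stand out. The share over all genes was not counted. CTT1 was lowest on wild-type replicate 1, at 8.95, 9.38 and 9.03 in wild-type. Of 6 sporulation markers 2 rose, 2 fell and 2 did not pass (66.7% called), of 7 markers of mating type a 2 rose and 5 did not pass (28.6%), and of 4 of mating type alpha 1 rose and 3 did not pass (25%). The part of these genes or of wild-type replicate 3 in the ATG values was not tested.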

How the data were processed

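The deposited table holds probe-set intensities on a linear scale for 10928 probe sets on 6 arrays. Per the submitters' processing notes, the authors used R 2.8.0, the affy package and RMA, which corrects background, equalises intensity distributions between arrays and summarises probes. Equalising removes any change in total messenger RNA. No genome build is stated in the sources used here.

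Intensities were converted to log2 without further normalization. The platform annotation, with RefSeq's R64 table for symbols and adjoining genes, gave 5449 genes, each by its brightest probe set. Background was the 95th percentile of the 1746 probe sets of the other yeast species on the array. Groups were compared with limma 3.58.1 (lmFit, eBayes, no covariates) in R 4.3.3, two-sided, with Benjamini-Hochberg adjustment over all genes. The number of arrays limits the precision, with a median 95% half-width of 0.16 for the members. On simulated data of 5449 genes the test called 46%, 78%, 78% and 100% of 50 genes each changed by 0.3, 0.5, 1 and 2. It also called 10 unchanged genes. The simulated arrays varied independently, and far fewer genes were changed than were called in the real data, so these rates need not hold for the real arrays.

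Every ATG gene is named. Array values are given for receptors, called genes, genes whose groups do not overlap and genes with a single deviating array. From other lists come counts and at most 4 named genes, taken from the 4 of lowest adjusted p but not always in that order. UME6, RPH1, GLN3, MSN2 and HSP12, the 3 pairs of genes and the 36 poly-A probe sets were chosen after values were seen. The members, classes and lists were chosen with earlier results of these data known. Alternatives were the replicate number as a block, arrays left out, other normalizations and filters, averaged probe sets, array weights, a trended robust prior, stricter thresholds and other class limits.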

Additional observations from a re-analysis of the deposited data

How the results depend on the processing

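The number of called members, 6 with all arrays, ranged from 2 (without deletion replicate 3) to 10 (without wild-type replicate 2) when 1 array was left out. For the core machinery, 3 called became 1 to 5 and for the receptors 2 became 1 to 3. Over all genes 1224 became 406 to 1225. Without both outermost arrays 0 members were called and 328 of all genes, at an adjusted p under 0.01 1 member (ATG38, in the core), 0 receptors and 347 genes, and with limma's treat against 1.2-fold 0 members and 129 genes. Unadjusted, 14 of the 34 members had limma p under 0.05 with all arrays, beside 2093 of all 5449 genes. Array weights gave 9 members (also ATG1, ATG4 and ATG33), 5 of them in the core, and 1807 genes.

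Same-numbered arrays deviated together for number 1 only (correlations 0.53, -0.17 and -0.44), so the numbers were not taken as pairs. Across numbers, wild-type replicate 3 deviated with deletion replicate 2 (0.58) and wild-type replicate 2 with deletion replicate 3 (0.49). With number 1, these positive correlations match every wild-type array with a different deletion array. No block by that matching was fitted, and its cause was not tested. Wild-type replicate 1 deviated against deletion replicate 2 (-0.66). With the replicate number as a block 4 members (ATG38, ATG3, ATG5 and ATG39), 1 receptor and 733 genes were called.

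Poly-A centring called 30 members (16 core, 6 receptors) and 4952 genes, with medians of 0.82 for the core and 0.91 for the receptors. Signs turned for ATG12 (0.76), ATG13 (0.82), ATG14 (0.72), ATG16 (0.52), ATG17 (0.60), ATG20 (0.80), ATG22 (0.79), ATG23 (0.70), ATG27 (0.75), ATG32 (0.78), ATG38 (0.48), ATG5 (0.57), ATG7 (0.79) and ATG9 (0.81). The split of calls went from 3 higher and 3 lower to 29 higher and 1 lower, as each value was raised by the same amount. Small changes turned elsewhere. Without both outermost arrays ATG15 was at -0.0169, ATG2 at -0.0773, ATG20 at 0.0112, ATG29 at -0.17 and ATG36 at -0.00479. Quantile normalization gave -0.0745 for ATG2, -0.0269 for ATG36 and -0.0286 for ATG40, median centring -0.0111 for ATG2, and array weights 0.0491 for ATG20 and 0.00678 for ATG9. With 1 array left out ATG12 ran from -0.21 to 0.0124, ATG2 from -0.0745 to 0.0745, ATG20 from -0.17 to 0.00217, ATG21 from -0.00452 to 0.0767, ATG29 from -0.13 to 0.36, ATG36 from -0.0115 to 0.10 and ATG40 from -0.0139 to 0.0777. The cause of these shifts was not tested.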

Other observations

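The genes next to the ATG genes in assembly R64 gave 65 measured neighbours, of which 15 were called, a share near the 22.5% of all genes. ATG19 is among them, as the neighbour of ATG34. Next to the 6 called members lay 12 measured neighbours, of which 1 was called. That was MRPL15, for a mitochondrial ribosomal protein, beside ATG39, which fell by 0.26 (adjusted p = 0.0341). CDC25, on the other side of ATG39, was 0.18 higher and not called. Both neighbours of ATG38, CLB4 and TUB4, differed by -0.11 and 0.11, and both neighbours of ATG41, YAH1 and RPL36B, by 0.21 and 0.10, with no call among them. SET6, whose annotated gene overlaps ATG29, rose by 0.46 (adjusted p = 0.0117).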
